A study of Mus musculus with 12 samples.

Results

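The regions described here are the H3K9me3 regions of mouse chromosomes 1, 8 and 14, taken by chromosome name from the authors' deposited table of 68291 regions. They number 11856, with 5331 on chromosome 1, 3517 on chromosome 8 and 3008 on chromosome 14. These chromosomes were chosen because cultured mouse embryonic stem cells often gain an extra copy of one of them, so that a culture can come to hold 3 copies in place of 2. They were set against 47727 regions on 14 comparison chromosomes (2 to 7, 9, 10, 12, 13, 15 and 17 to 19). DNA sequencing after immunoprecipitation with an antibody to trimethylated lysine 9 of histone H3 (H3K9me3 ChIP-seq) was done on Tex19.1-/- (knockout) and Tex19.1+/- (heterozygous) embryonic stem cells derived from the E14Tg2a line, strain background 129/Ola, at passages 12 to 20. The series has 3 immunoprecipitated and 3 input libraries per genotype, and no treatment other than the genotype is named. The heterozygous cells carry 1 disrupted allele, so the comparison has no wild-type group, and separate cultures or clones for the libraries of a genotype are not stated in the labels. The genotype field contradicts the title in 6 of the 12 libraries, and the groups named here follow the titles.

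H3K9me3 is placed by the SUV39H and SETDB1 methyltransferases, is bound by HP1 proteins and marks heterochromatin, where it keeps retrotransposons, satellite repeats and clustered gene families silent. Tex19.1 is expressed in germ cells and pluripotent cells and takes part in the control of retrotransposons. ChIP reads over a stretch of genome scale with the number of copies of that stretch as well as with the mark. If a chromosome had 3 copies in all cells of one genotype and 2 in the other, and nothing else differed, its log2 fold change would differ from that of other chromosomes by 0.585, and a gain in a share of the cells would give less. Copy number is usually judged from input libraries. The deposited table has no values of single libraries, so input and copy number were not analysed here, and a change in the mark cannot be told apart from a change in copy number. The table does not say which genotype was on top of the fold change, so values are given by sign, and neither sign can be read as higher in knockout cells. No test of a chromosome or bin against the others was possible, because regions of 1 table are not replicates, and the intervals given with medians ignore any likeness between neighbouring regions.

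The genes Fat1, Hsbp1, Prmt5 and Hjurp lie at called regions (FDR below 0.05 in the authors' deposited table). They are shown here by a RefSeq promoter window each, because the position of the mark relative to this window differs between them. The sequences are from RefSeq (GRCm38.p6, the assembly that mm10 names), each running from 250 bases before a gene start to 50 bases after it, written on the strand given in that table, with CG dinucleotides in capitals. The Fat1 window (chr8:44949958-44950257, plus strand) lies inside the gene body, downstream of its outermost start. The Hsbp1 window is chr8:119344288-119344587 (plus strand), the Prmt5 window chr14:54517421-54517720 (minus strand) and the Hjurp window chr1:88277530-88277829 (minus strand).
Fat1: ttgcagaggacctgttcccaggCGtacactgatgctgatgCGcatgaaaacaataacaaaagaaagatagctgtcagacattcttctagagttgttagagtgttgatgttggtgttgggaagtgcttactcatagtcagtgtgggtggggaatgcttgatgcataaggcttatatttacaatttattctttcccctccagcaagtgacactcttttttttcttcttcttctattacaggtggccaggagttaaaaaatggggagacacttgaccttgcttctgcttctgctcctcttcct
Hsbp1: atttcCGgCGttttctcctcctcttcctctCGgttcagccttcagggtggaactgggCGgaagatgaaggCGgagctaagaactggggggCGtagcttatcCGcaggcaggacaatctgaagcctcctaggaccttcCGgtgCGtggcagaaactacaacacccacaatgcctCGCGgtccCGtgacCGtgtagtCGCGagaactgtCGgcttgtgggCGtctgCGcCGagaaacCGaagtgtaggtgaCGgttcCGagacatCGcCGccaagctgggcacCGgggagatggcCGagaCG
Prmt5: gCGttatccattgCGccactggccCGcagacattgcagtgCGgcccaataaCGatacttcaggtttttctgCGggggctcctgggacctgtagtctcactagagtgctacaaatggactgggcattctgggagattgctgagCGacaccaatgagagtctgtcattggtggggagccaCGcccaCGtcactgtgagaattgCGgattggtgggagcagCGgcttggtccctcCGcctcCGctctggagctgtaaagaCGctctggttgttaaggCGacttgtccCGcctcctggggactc
Hjurp: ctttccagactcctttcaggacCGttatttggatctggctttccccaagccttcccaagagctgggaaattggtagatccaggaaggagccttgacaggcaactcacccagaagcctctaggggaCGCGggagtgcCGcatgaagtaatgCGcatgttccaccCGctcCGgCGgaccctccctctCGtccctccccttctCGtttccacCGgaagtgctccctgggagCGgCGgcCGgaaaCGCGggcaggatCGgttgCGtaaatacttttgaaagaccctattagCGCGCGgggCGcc
The CG dinucleotide reads the same on both strands, and 94.6% of the 32851 RefSeq windows hold at least 1. The Fat1 window has 2, a number that 85.9% of all windows reach. The Hsbp1 window has 27, reached by 15.5% of windows, the Hjurp window 22, reached by 23.1%, and the Prmt5 window 16, reached by 33.0%. The Fat1 window lay wholly inside a called region. That region starts at 44948650, downstream of the outermost start of Fat1 at 44933100. The window therefore does not describe the promoter at the outermost start. The called region at Hsbp1 began 980 bp past the window, that at Prmt5 ended 1341 bp from it, and that at Hjurp ended 1087 bp from it. These 3 windows, which are richer in CG, thus lay outside the called regions. The genes were picked with the calls known, and a link between CG content and the calls was not tested.

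Chromosome 8 had the lowest values of the 3 chromosomes. Its median log2 fold change was -0.083 (95% order-statistic interval -0.094 to -0.070), against -0.025 (-0.028 to -0.022) over the comparison chromosomes, a difference of -0.057. As a ratio the chromosome 8 median is 0.944. Of its 3517 regions 39.7% were positive (95% Wilson interval 38.1 to 41.4), against 46.5% of comparison regions. None of the 14 comparison chromosomes had a lower median, but the nearest of them, chromosome 19 at -0.073 (-0.090 to -0.052) and chromosome 12 at -0.066 (-0.079 to -0.050), had intervals that overlapped that of chromosome 8. Outside the comparison, the Y chromosome had a lower median than chromosome 8, at -0.18 (-0.24 to -0.12), the X chromosome had -0.076, and chromosomes 11 and 16 had 0.28 and 0.32.

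Chromosome 1 lay at the other end of the order. Its median was -0.0056 (-0.015 to 0.0044), 0.020 above the comparison median, and 13 of the 14 comparison chromosomes had a lower one. Several of them had intervals that overlapped that of chromosome 1. Among these were chromosome 10 at -0.0075 (-0.020 to 0.0040) and chromosome 13 at -0.0083 (-0.019 to 0.0059). Chromosome 2, which was higher at -0.0013 (-0.011 to 0.0097), overlapped it too. On chromosome 1, 49.3% of regions were positive (47.9 to 50.6). Chromosome 14 was in the middle, with a median of -0.024 (-0.038 to -0.012), 0.0012 above the comparison median, 46.7% of regions positive (44.9 to 48.5) and 6 of 14 comparison chromosomes below it. The order was therefore chromosome 1, chromosome 14, chromosome 8. The intervals of chromosomes 1 and 14 overlapped slightly, and neither overlapped that of chromosome 8.

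**Figure D1:**
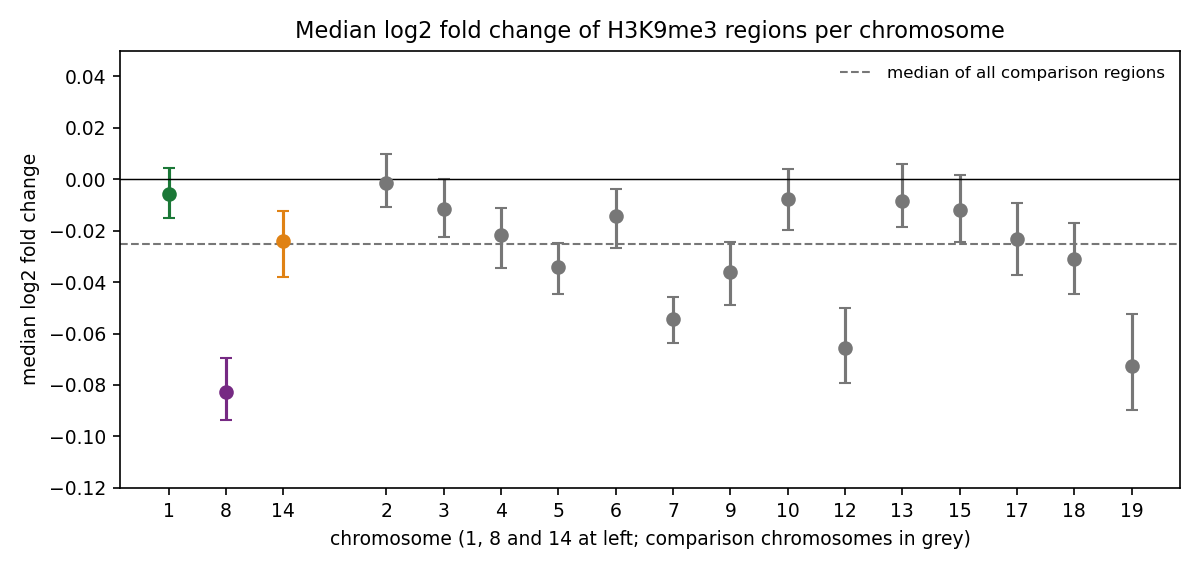
Median log2 fold change of the H3K9me3 regions of each chromosome (y axis), with 95% order-statistic intervals as bars, for chromosomes 1, 8 and 14 (coloured, left) and the 14 comparison chromosomes (grey), and a dashed line at the median of all comparison regions. Chromosome 8, at -0.083, has the lowest median plotted, next to chromosome 19 at -0.073, while chromosomes 1 and 14 lie within the range of the grey points.

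The deposited fold change depended on signal, so the chromosomes were also compared among regions of like signal. Over the comparison chromosomes the median was 0.037 below a log2 CPM of 2.5 and -0.084 at 5.5 and above, where log2 CPM is the deposited average of a region's reads, scaled to library size and put on a log2 scale. Chromosome 8 was below the comparison chromosomes at every level of signal. It had -0.057 against 0.037 below a log2 CPM of 2.5, -0.064 against 0.0064 from 2.5 to 3.5, -0.079 against -0.036 from 3.5 to 4.5, -0.10 against -0.057 from 4.5 to 5.5, and -0.13 against -0.084 at 5.5 and above. The same held in 5 of 5 classes of width and in regions at protein-coding genes, at other genes and between genes, so that chromosome 8 was below the comparison in 13 of 13 classes, by 0.025 to 0.10. Chromosome 1 was above it in all 13, by 0.0047 to 0.038. Chromosome 14 was below it in 6 of 13, with differences from -0.019 to 0.0063. The classes of signal, width and annotation hold the same regions and are not independent of each other.

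**Figure D2:**
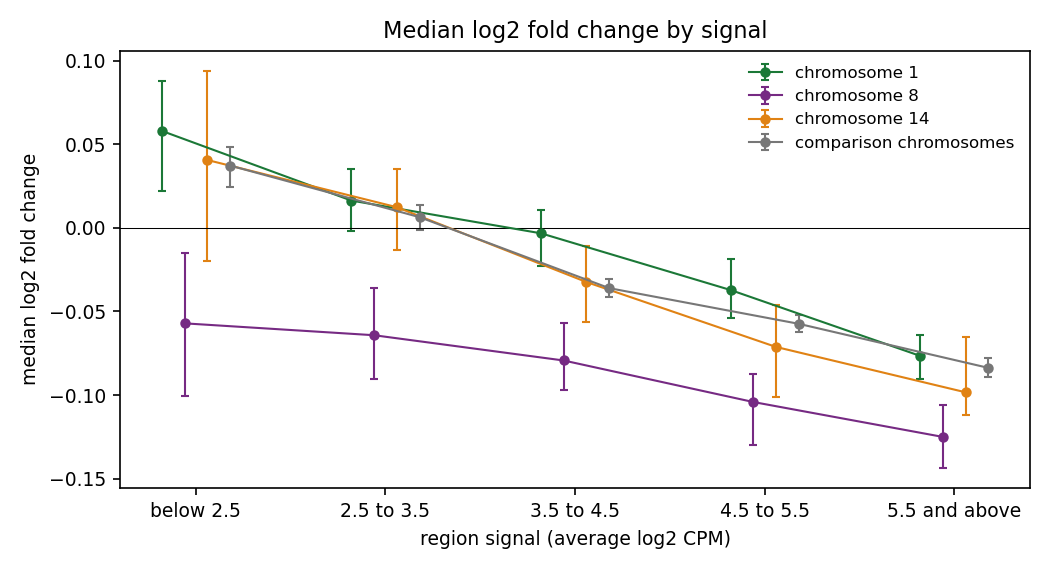
Median log2 fold change (y axis) of regions in 5 classes of average log2 CPM (x axis), with 95% order-statistic intervals, for chromosomes 1, 8 and 14 and the comparison chromosomes (grey). All lines slope down with signal, and the line of chromosome 8 lies below the others in each class, at -0.057 in the weakest and -0.13 in the strongest.

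With the median of comparison regions of like log2 CPM subtracted, chromosome 8 had -0.058 (-0.072 to -0.047), chromosome 14 had -0.0021 (-0.018 to 0.012) and chromosome 1 had 0.017 (0.0093 to 0.026). The offset of chromosome 8 was thus of the same size with and without this step, while the median of chromosome 1 turned from just below 0 to just above it. By this measure the X chromosome, at -0.067, was lower than chromosome 8. Regions with a log2 CPM of at least 4, which are the better measured, had medians of -0.11 on chromosome 8 (830 regions), -0.076 on chromosome 14 (748 regions) and -0.047 on chromosome 1 (1466 regions), against -0.062 over 12914 comparison regions.

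The regions also differed in size and signal between the chromosomes. Regions on chromosome 8 were narrower and weaker, with a median width of 725 bp and a median log2 CPM of 2.94, against 778 bp and 3.10 over the comparison chromosomes. Both values were below those of all 14 comparison chromosomes, whose lowest were 759 bp and 3.03. Chromosome 1 had 792 bp and 3.14, and chromosome 14 had 756 bp and 3.04. On chromosome 8, 32.4% of regions overlapped a protein-coding gene, above the highest comparison chromosome at 29.1%. Chromosome 14 had 27.1% and chromosome 1 had 25.3%, against 24.6% over the comparison chromosomes. The part of these features in the offset of chromosome 8 was not tested beyond the classes given above. The density was 27.9 regions per Mb on chromosome 8, 27.7 on chromosome 1 and 24.96 on chromosome 14, within the range of 21.3 to 31.3 on comparison chromosomes.

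In bins of 5 Mb by start position, with at least 10 regions in a bin, 26 bins of chromosome 8, 40 of chromosome 1 and 24 of chromosome 14 were described, against 364 comparison bins. All 26 bins of chromosome 8 had a negative median. The share of negative bins was 52.5% on chromosome 1 (21 bins) and 79.2% on chromosome 14 (19 bins, 95% Wilson interval 59.5 to 90.8). It was 62.1% over comparison bins, and the highest share on a comparison chromosome was 76.9%, on chromosome 19, inside the interval of chromosome 14. With values relative to like signal, 25 of the 26 chromosome 8 bins (96.2%), 11 of the 40 chromosome 1 bins (27.5%) and 14 of the 24 chromosome 14 bins (58.3%) were negative. The share was 41.5% over comparison bins, with a highest share of 69.2%, on chromosome 19. The 95% interval of the bin median lay wholly below 0 in 15 bins of chromosome 8, 2 of chromosome 1 and 3 of chromosome 14, and in 70 comparison bins. It lay wholly above 0 in 0 bins of chromosome 8, 2 of chromosome 1 and 0 of chromosome 14, and in 15 comparison bins.

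**Figure D3:**
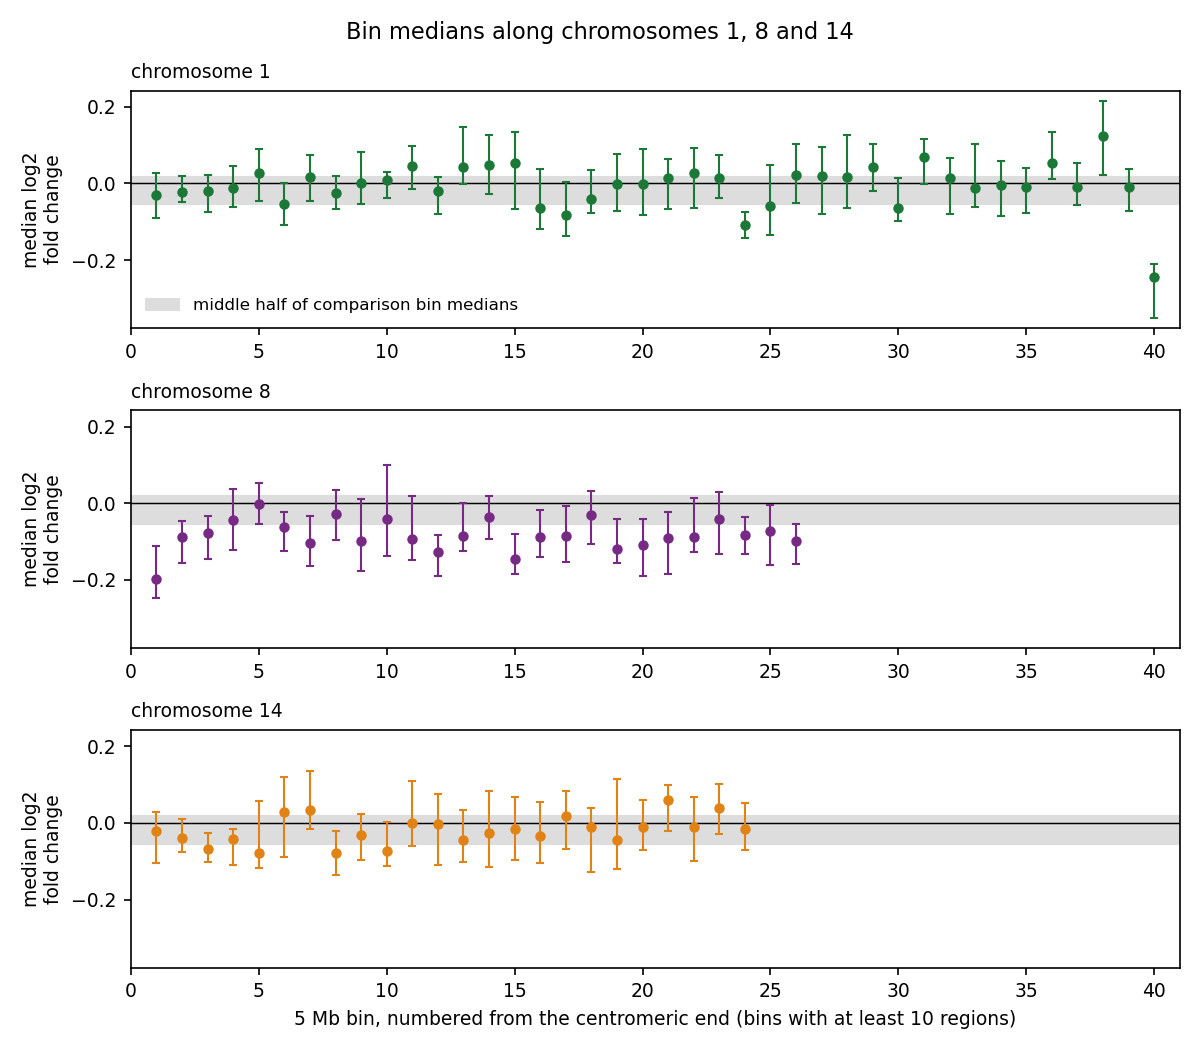
Median log2 fold change (y axis) of 5 Mb bins with at least 10 regions, numbered from the centromeric end (x axis), on chromosomes 1, 8 and 14, with 95% order-statistic intervals, and a grey band for the comparison bins between their quartiles (-0.055 to 0.018). All 26 points of chromosome 8 lie below 0, the first at -0.20, and the last bin of chromosome 1 lies at -0.24.

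Along chromosome 8 the medians were lowest at the centromeric end and otherwise showed no steady trend. From 0 to 5 Mb, where the first region starts at 3098616, the median was -0.20 (-0.25 to -0.11, 131 regions, 97 of them negative), which was the third lowest of all 454 bins. The next bins had -0.087, -0.079 and -0.044, and the bin from 20 to 25 Mb had -0.0021, the highest of the chromosome. From 25 to 50 Mb the bins had -0.063, -0.10, -0.028, -0.098 and -0.041. From 50 to 75 Mb they had -0.092, -0.13, -0.085, -0.036 and -0.15. The last of these, from 70 to 75 Mb, was the second lowest of the chromosome, with 125 of 186 regions negative. From 75 to 100 Mb they had -0.088, -0.084, -0.031, -0.12 and -0.11, and from 100 Mb to the end -0.090, -0.087, -0.043, -0.084, -0.073 and -0.099. Across the 26 bins Spearman's rho of the bin median with position was -0.083, with the number of protein-coding genes 0.14 and with the median log2 CPM -0.31. The standard deviation of the bin medians was 0.041, against 0.061 over all comparison bins and 0.040 to 0.093 within single comparison chromosomes.

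Windows of 1 Mb inside the outer bin, added after the data were seen, placed its low values next to the centromeric end. From 3 to 4 Mb, where Insr, the insulin receptor, lies, the median was -0.28 over 53 regions, 44 of them negative. From 4 to 5 Mb it was -0.11 over 78 regions, 53 of them negative. The single region in Insr itself was positive, at 0.099 in the authors' deposited table. The first kept bin was negative on 13 of the 14 comparison chromosomes too, with a range of -0.16 to 0.011, while it was -0.029 on chromosome 1 and -0.020 on chromosome 14. The first bin of chromosome 14, from 0 to 5 Mb, held 4 regions and was not kept.

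The bin of chromosome 8 from 115 to 120 Mb was dense, with 363 regions, the second highest number of all 454 bins. Its regions were narrow (median 592 bp) and weak (median log2 CPM 2.55). Many of them lay in Cdh13, a gene of 1184913 bp for T-cadherin, a cadherin held to the membrane by a lipid anchor. Cdh13 overlapped 145 regions, of which 83 were negative, the median was -0.078 and none was called. For the lowest of them (119245881 to 119246376), at -1.36, the authors' deposited table gave p = 0.0242 before adjustment and an FDR of 0.852.

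Chromosome 1 was close to 0 over most of its length, and both its highest and its lowest bin lay in its distal part. The quartiles of its 40 bin medians were -0.023 and 0.023. From 0 to 60 Mb the bins lay between -0.054 and 0.046. The lowest inner bin, from 115 to 120 Mb, had -0.11 (-0.14 to -0.075), with 140 of 208 regions negative. All 5 of its 1 Mb windows were negative, from -0.14 to -0.063. Tfcp2l1, a transcription factor of naive pluripotency, lies in it but had no region within 5 kb. The highest bin, from 185 to 190 Mb, had 0.12 (0.023 to 0.21), with 64 of 100 regions positive, and its most positive window, from 185 to 186 Mb, had 0.26 over 20 regions. From 150 to 155 Mb the median was 0.068 (-0.00039 to 0.12).

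The last bin of chromosome 1 had the lowest median of all 454 bins. Its 32 regions lay between 195060711 and 195371865, and 30 of the 32 were negative. The complement genes Cd46, Cr1l and Cr2 lie in the first part of this span, up to 195176880, and the rest is beyond them. The median was -0.24 (-0.35 to -0.21), or -0.19 relative to like signal. None of the 32 was called, and 8 had an unadjusted p below 0.05. A region 902 bp from the pseudogene Vmn2r-ps1 (195292341 to 195293241) had -0.67 with an unadjusted p of 0.045 in the authors' deposited table. The bin before it, from 190 to 195 Mb, had -0.010. The last bin was -0.099 on chromosome 8 and -0.016 on chromosome 14. On the comparison chromosomes it ran from -0.18, on chromosome 7, to 0.040, with 9 of 14 negative.

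On chromosome 14 the bin medians stayed in a narrow range, from -0.079 to 0.060. Their standard deviation of 0.037 was below that of every comparison chromosome, the lowest of which was 0.040. The lowest bins were those from 40 to 45 Mb (-0.079, interval -0.14 to -0.021, 94 of 152 regions negative) and from 25 to 30 Mb (-0.079, interval -0.12 to 0.058). In the first of these the 1 Mb window from 42 to 43 Mb had 14 of 15 regions negative, with a median of -0.27. The highest bins were those from 105 to 110 Mb (0.060, interval -0.021 to 0.098) and from 115 to 120 Mb (0.039, interval -0.028 to 0.10). Across the 24 bins rho with position was 0.43, within the range of -0.14 to 0.68 on comparison chromosomes.

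**Figure D4:**
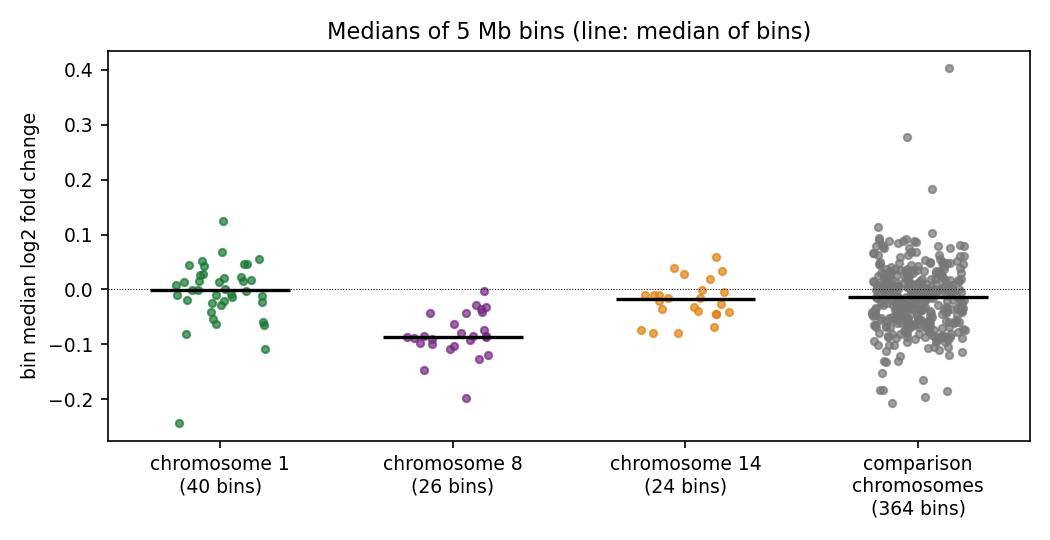
Medians of 5 Mb bins (y axis, log2 fold change), 1 point per bin with random sideways spread, for chromosomes 1, 8 and 14 and for the comparison chromosomes, with a line at the median of the bins. Chromosome 8 bins centre on -0.086, those of chromosome 14 on -0.018 and those of chromosome 1 on -0.00077, against -0.014 for comparison bins.

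Single regions that differed between the genotypes were few. A region is called when the FDR in the authors' deposited table is below 0.05. Of the 11856 regions 10 were called, 7 positive and 3 negative, or 0.0843%, against 98 of 47727 (0.205%) on the comparison chromosomes and 0.281% of all regions in the table. Positive calls made up 0.192% of the whole table and negative calls 0.0893%. Chromosome 1 had 5 calls (0.0938%), chromosome 8 had 4 (0.114%) and chromosome 14 had 1 (0.0332%). On single comparison chromosomes the share ran from 0.0733% to 0.654%, with a median of 0.126%. Chromosome 13 held 24 of the 98 calls on the comparison chromosomes. Of the 10 calls on chromosomes 1, 8 and 14, 9 had a log2 CPM of at least 5 and 9 were at least 3000 bp wide. Before adjustment 376 regions (3.17%) had a p below 0.05, against 4.74% of all regions in the table. On chromosome 8 these were 28 positive and 116 negative, on chromosome 14 29 positive and 57 negative, and on chromosome 1 75 positive and 71 negative. Positive regions with such a p made up 2.70% of all regions, and negative ones 2.05%. Chromosomes 11 and 16, which are outside the comparison, held 494 and 442 of the positive ones. The comparison chromosomes had 760 positive and 1054 negative ones. Among them, chromosome 12 had 27 positive and 102 negative, and chromosome 7 had 33 positive and 120 negative, so negative ones outnumbered positive ones there as well.

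The 3 positive calls on chromosome 8 stood against the negative level around them. The error after ± is a standard error derived from the fold change and p-value of the authors' deposited table. In Fat1, an atypical cadherin, 7 of 7 regions were positive and 2 were called, the first (44948650 to 44955099) listed at 1.04 ± 0.12 (FDR 1.21e-13) and the other (45023892 to 45025101) at 1.51 ± 0.39 (FDR 0.0448) in the authors' deposited table. The bin of the first call had a median of -0.098 (-0.18 to 0.011), and that of the other -0.041 (-0.14 to 0.10). The nearest regions had 0.069 and 0.19 at the first call, and 0.90 and -0.43 at the other. At Hsbp1, which encodes a small protein that binds heat shock factor 1, a region over the gene body (119345567 to 119350512) had 0.79 ± 0.14 in the authors' deposited table (FDR 4.43e-05). This is a 1.73-fold difference. The region just before it (119337891 to 119344359), 1208 bp away, was stronger, at a log2 CPM of 6.86 against 5.53, and reached 72 bases into the promoter window, but was listed at -0.069 (FDR 1) in the authors' deposited table. The next region on the far side had 0.077. At Hsbp1 the called value thus stood between neighbours near 0.

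The negative call on chromosome 8 lay in the pseudogene Gm6831 (104781747 to 104787271), at -0.45 ± 0.12 in the authors' deposited table (FDR 0.0474). It sits among carboxylesterase genes, which encode ester-cleaving enzymes best known from liver and gut. Across 104.73 to 105.15 Mb, the span of 11 of these genes, 25 of 35 regions were negative and the median was -0.28. Across 93.02 to 93.54 Mb, the span of the other 9, 16 of 19 were negative and the median was -0.18. Counted by gene, 11 of the 20 carboxylesterase genes had a region in the body or within 5 kb, and 19 of these 25 had a negative value, the median being -0.35, or -0.31 relative to like signal. None of the 25 was called and 1 had an unadjusted p below 0.05. That region, in Ces2h (105007893 to 105012391), was listed at -0.39 ± 0.11 (FDR 0.0812) in the authors' deposited table.

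On chromosome 1, 3 of the 5 calls lay within 1 Mb. A region that begins just outside Dusp27, a gene for an atypical member of the dual-specificity phosphatase family, and runs into it (166095220 to 166103057) had 0.33 ± 0.082 in the authors' deposited table (FDR 0.0228). A region 58760 bp further on, which runs past the boundary of Gpa33, a gene that encodes a surface antigen of gut epithelium (166161817 to 166168990), was listed at 0.33 (FDR 0.0368) in the authors' deposited table as well. Another, 42558 bp from Gm4847 (166574855 to 166586413), was listed at -0.25 (FDR 0.00911) in the authors' deposited table, and was the second strongest region of the chromosome, at a log2 CPM of 8.14. This negative call lay 405865 bp from the call at Gpa33, and its nearest regions had -0.46 and -0.25. Over 166 to 167 Mb as a whole 26 of 42 regions were negative (median -0.097). Relative to regions of like signal the values of the 3 calls became 0.43, 0.43 and -0.12.

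The other calls on chromosome 1 were in Hjurp and between genes. Hjurp encodes the chaperone that loads the centromeric histone CENP-A. Its region (88268655 to 88276443) had 0.30 ± 0.069 in the authors' deposited table (FDR 0.00979), and its neighbours on both sides were positive too, at 0.22 and 0.27, each with an FDR of 1. The region between genes (149579632 to 149583322), with no gene within 50 kb, had -0.66 ± 0.16 in the authors' deposited table (FDR 0.0193). Its neighbours had -0.012 and -0.29. The single call on chromosome 14 was over Prmt5, an enzyme that methylates arginines symmetrically (54506315 to 54516080), listed at 0.65 (FDR 2.15e-12) in the authors' deposited table. Its neighbours had 0.19 and 0.012. The strongest region of chromosome 14, in the nearby Haus4, which encodes a subunit of the spindle complex augmin (54542329 to 54553910, log2 CPM 8.32), had 0.0019 in the authors' deposited table. None of the 20 nearest neighbours of the 10 called regions was itself called.

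**Figure D5:**
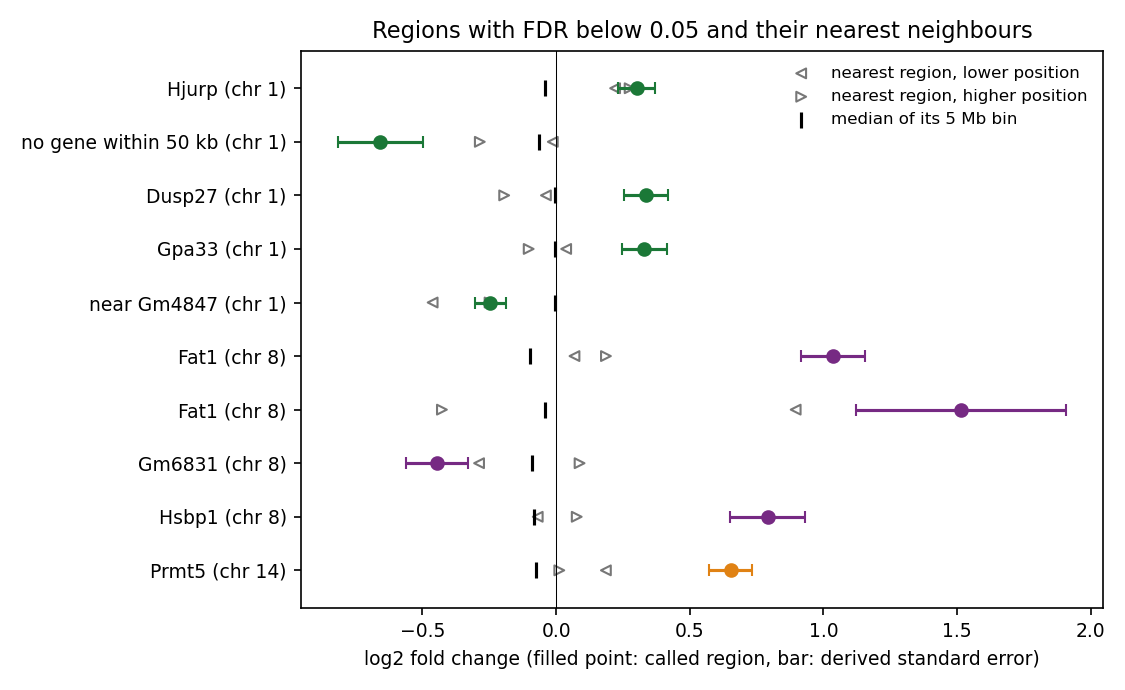
Log2 fold change (x axis) of the 10 regions with an FDR below 0.05 on chromosomes 1, 8 and 14 (filled points, coloured by chromosome, bars for the derived standard error), with the nearest region on either side (open triangles) and the median of the 5 Mb bin (black ticks). Hsbp1, at 0.79, lies between neighbours at -0.069 and 0.077, while Hjurp, at 0.30, has neighbours at 0.22 and 0.27 and the region near Gm4847, at -0.25, has neighbours at -0.46 and -0.25.

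Of the 2 strongest and 2 widest regions of each chromosome, 1 was called, the one near Gm4847. The region of highest signal on chromosome 1 (85859935 to 85885032, log2 CPM 8.83), 8358 bp from Cab39, was also the third widest of the whole table, at 25097 bp, and was listed at -0.10 (FDR 0.829) in the authors' deposited table. On chromosome 8 the strongest (74782329 to 74795134, log2 CPM 7.96), in the low bin from 70 to 75 Mb and with no gene within 50 kb, was listed at -0.19 (FDR 0.284) in the authors' deposited table. The next, in Arhgap10 (77443230 to 77454838), was listed there at -0.18 (FDR 0.41). A region on chromosome 14 that is only 1257 bp wide (19415925 to 19417182) had a log2 CPM of 8.24, the second highest of that chromosome, and -0.16 (FDR 0.279) in the authors' deposited table. The widest region of chromosome 8, 955 bp from Gm24254 (92040975 to 92056589, 15614 bp), was listed at -0.084 (FDR 1) in the authors' deposited table. The Haus4 region, both the strongest and the widest of chromosome 14, had 0.0019, as given above. Comparison regions with a log2 CPM of 5.5 and above had a median of -0.084.

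Gene families and groups, only some of which often carry H3K9me3, were counted on these chromosomes by regions in the gene body or within 5 kb. Over the 16 lists 347 regions were covered, 145 of them in Cdh13, and by the authors' test 0 were called. The called share was 0.0843% over all regions of chromosomes 1, 8 and 14, and 0.281% over the whole table. Of the 347 regions, 12 had an unadjusted p below 0.05, a p that 3.17% of regions on these chromosomes had. Zinc finger genes, many of which are themselves marked at their repeated finger exons, had 49 regions at 20 of 40 genes, with a median of -0.049, and 3 of the regions had such a p, all of them negative. The lowest p among them was at Zfp869 on chromosome 8 (69707631 to 69709699), listed at -0.50 (FDR 0.808) in the authors' deposited table. On chromosome 8 alone their median was -0.036 over 40 regions, above the chromosome's own -0.083. Relative to like signal, zinc finger genes had a median of -0.0057 on chromosomes 1, 8 and 14 together. On chromosome 8 alone it was 0.00095 by this measure. Cadherins had 162 regions, 159 of them on chromosome 8, with a median of -0.074, and 2 of them had such a p.

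Clustered families of immune and sensory genes had mostly negative medians. Defensins on chromosome 8, small antimicrobial peptides, had 16 regions at 12 of 64 genes with a median of -0.11, and the region of smallest p, 3174 bp from Defb10 (21865185 to 21875721), was listed at -0.23 (FDR 0.118) in the authors' deposited table. Olfactory receptors had 20 regions at 14 of 81 genes with a median of -0.062, and vomeronasal receptors 13 at 6 of 11 genes with -0.059. The interferon-inducible Ifi2 genes on chromosome 1, which encode sensors of foreign DNA, had 17 regions at 8 of 13 genes with a median of -0.079, and the strongest of them, at Ifi213 (173571761 to 173583507), was listed at -0.19 (FDR 0.295) in the authors' deposited table. T cell receptor alpha and delta segments on chromosome 14 had 22 regions with a median of -0.14, and ribonucleases of the eosinophil-associated family and their relatives 6 with -0.11. Relative to like signal the medians were -0.076 for defensins, against -0.058 over chromosome 8, and -0.081 for Ifi2 genes. They were -0.073 for T cell receptor segments and -0.060 for ribonucleases. By this measure olfactory receptors had 0.022 on chromosome 1, -0.48 on chromosome 8 and -0.10 on chromosome 14. Vomeronasal receptors had -0.39, -0.11 and 0.15 there, each value resting on 10 or fewer regions. The Sp100 family had 3 regions on chromosome 1, all positive, with a median of 0.45 and 0 unadjusted p-values below 0.05. Olfactory receptors, T cell receptor segments and ribonucleases also had 0 such p-values, and defensins, vomeronasal receptors and Ifi2 genes had 1 each.

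The imprinted list had 9 regions at 3 of 4 genes, 8 of them positive, with a median of 0.24. All 3 of its unadjusted p-values below 0.05 were at Zdbf2 and Gpr1 on chromosome 1, where the region of smallest p (63218647 to 63220280) was listed at 0.75 (FDR 0.0705) in the authors' deposited table. Clade B serpins had 1 region (-0.29), protocadherins 2 (0.17 and 0.25), H3K9 methylation factors 1, at Tasor, a subunit of the HUSH silencing complex (-0.42), and germline genes 1, at Mael, a factor of the piRNA pathway (0.36), none with an unadjusted p below 0.05. The 6 pluripotency genes of the list on these chromosomes had 0 regions.

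Promoters were seldom covered. Of 4814 RefSeq promoter windows on chromosomes 1, 8 and 14, 145 (3.01%) overlapped a region, against 641 of 23215 (2.76%) on the comparison chromosomes other than 18, whose windows were not used here. The share was 4.02% on chromosome 8, above the 3.46% of the highest comparison chromosome, 2.78% on chromosome 1 and 2.28% on chromosome 14. Overlapped windows were poor in CG. On the 3 chromosomes 14.5% of overlapped windows had at least 10 CG dinucleotides, against 42.3% of the other windows there, and on the comparison chromosomes the shares were 20.1% and 44.6%. The 133 regions at these promoters included 1 call, the one at the Fat1 window inside the gene body. Of the 133 regions 10 had an unadjusted p below 0.05. The 580 regions at promoters of the comparison chromosomes had 12 calls and 54 such p-values. Among all regions 0.281% were called and 4.74% had such a p.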

How the data were processed

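The series holds 12 libraries, of which 3 IP and 3 input per genotype. Per the submitters' processing notes, build mm10 and the tools edgeR (version not named), bedtools 2.25.0, Bowtie2 2.2.6 and HOMER 4.8 are named, without their roles. The authors deposited 1 table of regions holding per region a log2 fold change, log2 CPM averaged over libraries, a p-value and an FDR, per the file headers. It has 0 columns of single libraries, so depth per library was not analysed here. The deposited FDR differs from a Benjamini-Hochberg adjustment over all regions by at most 3.2e-05. For the definition of regions, the direction of the fold change and the use of input, no statement was found (not given in the sources used here). P-values measure only the spread between these libraries, which may be technical.

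Medians, binomial order-statistic intervals, Wilson intervals and bins were computed with Python 3.11.15, pandas 2.3.3 and scipy 1.17.1, and the script was tested on simulated data. Intervals cover only the spread over regions or bins, taken as independent, and do not measure the spread between libraries. Values relative to like signal subtract the median of comparison regions in log2 CPM bins of 0.5. To derive a standard error, the size of the fold change (log2) was divided by the standard normal quantile of its 2-sided p-value. Genes are from RefSeq GRCm38.p6, as gene bodies without exons. Start positions are printed as deposited.

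Named regions were, per chromosome, all called ones (where 8 or fewer per direction), the 2 strongest, the 2 widest, the 2 highest and 2 lowest bins and the region of smallest p per list. Bins and regions named beyond this rule (neighbours, the dense bin, the Insr region) were picked with their values in view. The chromosomes and lists were chosen with earlier results of these data known.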

Additional observations from a re-analysis of the deposited data

How the results depend on the processing

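The calls depend on the threshold and on which regions share the adjustment. At an FDR below 0.01, 5 of the 10 calls were left, 4 positive and 1 negative, while 19 regions, 11 positive and 8 negative, were called without regions under 1000 bp, where fewer regions enter the adjustment. These 19 include all 10. In the adjustment over the 3 chromosomes and the comparison chromosomes alone, added after the data were seen, 7 remained, and the calls at Gpa33, at Gm6831 and at the smaller Fat1 region were lost.

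Chromosome medians moved with signal. For chromosome 1 the median was -0.047 at a log2 CPM of at least 4, -0.035 without regions under 1000 bp, 0.017 relative to like signal and -0.019 as a mean weighted by CPM. For chromosome 8 it was -0.11 at a log2 CPM of at least 4 and -0.058 relative to like signal. For chromosome 14 it was -0.076 at a log2 CPM of at least 4, -0.053 without regions under 1000 bp and -0.0021 relative to like signal. With chromosomes 11 and 16 kept in the comparison, whose values are positive, the differences became -0.010 for chromosome 1, which changes its sign, -0.087 for chromosome 8 and -0.029 for chromosome 14. At a log2 CPM of at least 4, added after the data were seen, the difference of chromosome 14 was -0.014. The difference of chromosome 8 was negative in all alternatives run. Without the lowest bin or without called regions, both added after the data were seen, no chromosome median left its interval.

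Among bin results, the share of negative bins relative to like signal was 27.5% on chromosome 1 and 58.3% on chromosome 14. On chromosome 14 the share without this step was 63.3% with bins of 2 Mb, against 79.2% with bins of 5 Mb. With bins of 2 Mb the highest median was 0.23 on chromosome 1, 0.084 on chromosome 8 and 0.12 on chromosome 14, and the lowest -0.28 on chromosome 8 and -0.15 on chromosome 14, so the negative sign of all bins of chromosome 8 held at 5 Mb but not at 2 Mb. The lowest bin median of chromosome 1 was -0.073 with bins of 10 Mb, and -0.19 with bins of 5 Mb relative to like signal. Of the alternative values for these summaries, 70 stayed within the interval or within 1.5 times the count and 24 moved. The causes were not tested. No paired analysis was possible because the table holds no values of single libraries, and leaving out replicates was not run for the same reason.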
